A study of Mus musculus with 9 samples.

Results

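The 40 genes described here drive or mark mitosis and the attachment of chromosomes to the spindle. They were chosen by name, and for each the array feature with the highest mean over all arrays was taken. Of the 40 genes, 39 were measured among 19505 genes in all, and Ccnb1 was not analysed here. RNA had been profiled on 9 one-colour whole-transcript arrays of GFP-labelled 3LL cells, also called Lewis lung carcinoma (LLC) cells, a transplantable lung tumour line from C57/BL6 mice. The 3 dish samples were grown as a flat culture for 7 days. The 3 subcutaneous samples are GFP+ cells isolated 7 days after transplantation under the skin. The 3 lung samples are GFP+ cells isolated 7 days after transplantation into the lung, and the series text calls the lung model "BLM lungs" without spelling the abbreviation out. All groups share the 1 GFP-labelled line, and the labels give no age, sex or number of host animals. Whether replicates are separate animals or cultures is not stated, so the spread behind each p-value may be technical.

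As background, a cell enters mitosis when Cdk1, bound to cyclins, is switched on by Cdc25 phosphatases with the help of the kinases Plk1 and Aurka. Kinetochores, protein assemblies built on centromeres, then capture spindle microtubules, and a checkpoint keeps the anaphase-promoting complex (APC/C) inactive until all chromosomes are attached. Cdc20 then activates the APC/C, separase cuts the cohesion between sister chromatids and the cell divides. Many of these genes are transcribed late in the cell cycle through a CHR element (cell cycle genes homology region) and CCAAT boxes in their promoters. In tumours their mRNAs are widely used as a measure of proliferation.

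Signals are log2 values, so a difference of 1 is a change of 2-fold, and a level of one gene is never set against that of another because probes differ in brightness. A gene was called where limma's moderated test over all 9 arrays gave an adjusted p under 0.05. The 90th percentile of the negative controls, 7.20 to 7.73 on the 9 arrays, served as the guide to background. By that guide 30 to 37 of the 39 genes were above background on an array. Ttk and Cenpf were under it on all arrays, and Cdc25c and Cenpe on all 3 subcutaneous arrays.

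Many mitosis genes were lower under the skin than in the dish and higher in lung samples than under the skin, and few were called between lung and dish. Between lung and subcutaneous samples 18 of the 39 genes were called higher in the lung and 2 lower, and 19 did not pass. Over all genes 9.21% were called higher and 5.79% lower in that comparison. The median difference of the 39 genes was 0.80 against -0.07 over all genes. Between subcutaneous and dish samples 20 of the 39 were called lower and 0 higher, with 6.47% of all genes called lower and 6.41% higher. At an unadjusted limma p under 0.05, 3 of the 39 were higher and 23 lower (7.69% and 59.0%, against 12.5% and 13.2% of all genes). The median was -0.89 against -0.01 over all genes. Between lung and dish samples 1 gene was called higher and 1 lower, with 4.81% of all genes called higher and 1.97% lower, and the median was -0.14 against -0.07. The comparisons share samples, so they are not independent of each other. In bulk RNA a smaller share of dividing cells and less of each mRNA per dividing cell cannot be told apart.

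**Figure D1:**
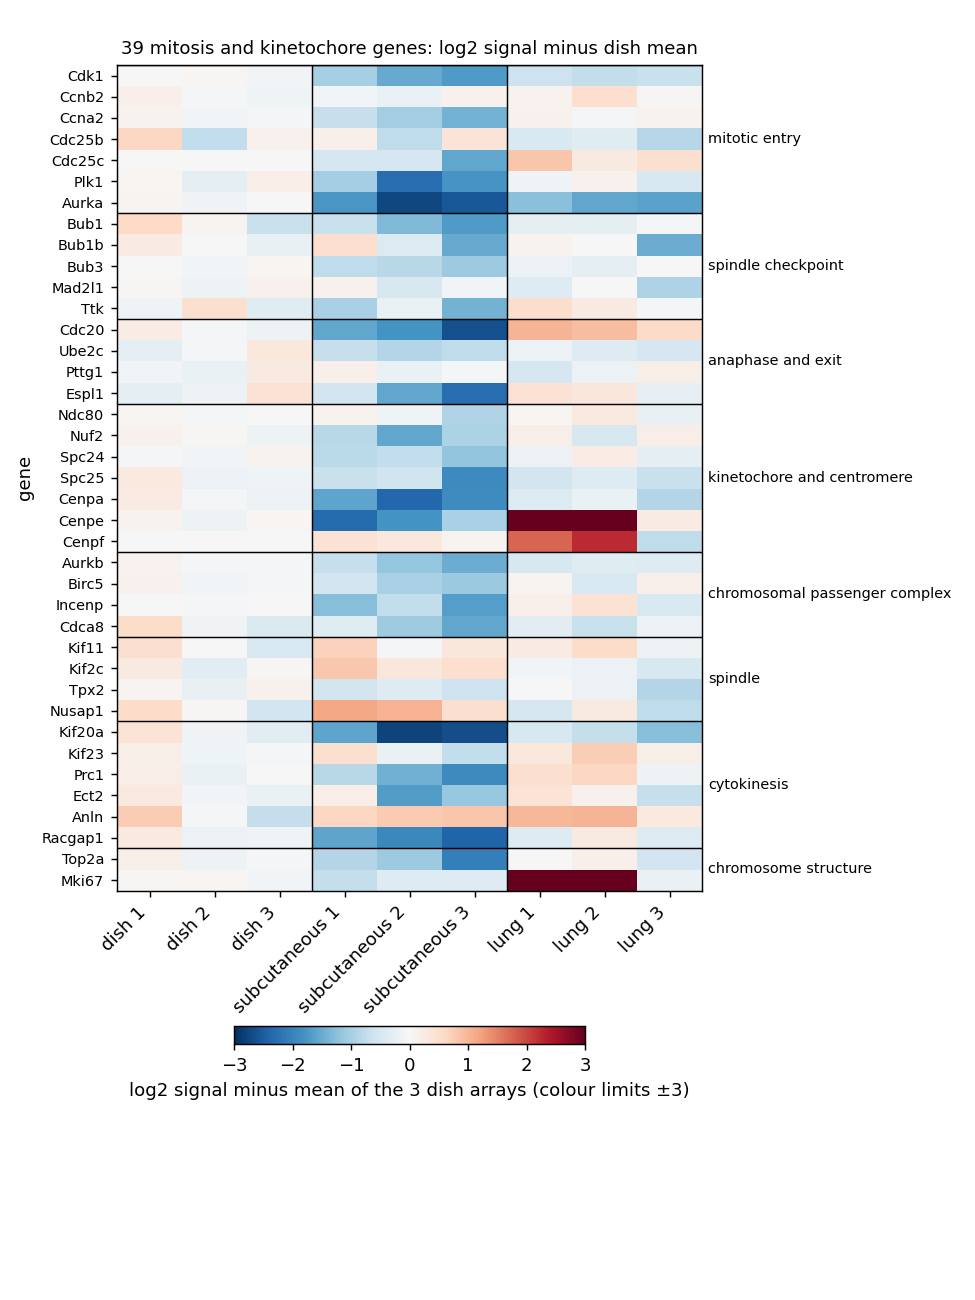
Log2 signal of each of the 39 measured genes on each of the 9 arrays, minus the mean of the 3 dish arrays, with genes grouped by role and colour limits of ±3. Blue, for signals under the dish mean, fills most of the subcutaneous columns, while Cenpe and Mki67 are dark red on lung replicates 1 and 2 alone.

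Technical measures also differed between the arrays. The RNA integrity number ran from 7.5 to 8.6, with group means of 8.50 in the dish, 7.97 under the skin and 8.17 in the lung. The lung arrays had the highest upper quartile over genes, whose range was 8.20 to 8.68, and the hybridization controls averaged 12.01 (dish), 12.83 (subcutaneous) and 11.35 (lung). Centring each array on genes above background moved the median of all genes from -0.07 to -0.28 between lung and subcutaneous samples and from -0.07 to -0.29 between lung and dish, with medians of 0.59 and -0.36 for the mitosis genes. The share of called genes that were higher went from 61.4% to 38.4% and from 71.0% to 42.5% with that centring, and from 71.0% to 57.6% between lung and dish with quantile normalization. With centring, 13 mitosis genes were called higher and 2 lower between lung and subcutaneous samples, and 20 lower between subcutaneous and dish samples.

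Markers of other cells were read on the same arrays, although GFP+ cells had been isolated. The 5 leukocyte genes (Ptprc, Cd3e, Adgre1, S100a8 and Csf1r) and the 3 endothelial genes (Pecam1, Cdh5 and Kdr) were under background on all arrays. Among 3 fibroblast genes, Col1a1 was under background throughout, while Lum and Dcn were above it on all subcutaneous arrays. Dcn was above it on all 3 lung arrays too (10.53 to 13.94) and on 1 dish array, and Lum on 2 lung arrays. The summed level of the 3 genes was 16.47 to 17.24 under the skin, 10.66 to 13.96 in the lung and 7.73 to 8.07 in the dish. In such a sum brighter probes weigh more. The summed level of 4 alveolar type II genes was 13.52 to 16.44 in the lung, 6.68 to 7.07 in the dish and 6.72 to 6.89 under the skin. In the lung Sftpc was at 13.45 to 16.37 and Lamp3 was under background. Krt8, Krt18 and Vim were read for the tumour line itself. The epithelial keratin gene Krt8 was above background on all arrays (11.68 to 13.87), as was Vim, and Krt18 was under it on the dish arrays (5.27 to 5.98). Krt8, Krt18 and Vim were called higher under the skin than in the dish (1.63, 5.31 and 1.61). Krt18 and Vim were called lower in lung samples than under the skin (-2.98 and -1.53), and Krt8 was not (-0.69). The part of these markers in the results on mitosis genes was not tested.

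The promoters show what many of these genes have in common. RefSeq windows on GRCm38.p6, from 250 bases before to 50 bases after a start site, were matched to 32 of the 39 genes, in 35 windows because 3 genes have several. Both strands were searched for the CHR, written TTTGAA, and for the letters CCAAT of the CCAAT box. Other spellings of the CHR were not searched for, so a window without a match may still hold one. A CHR stood in a window of 24 of the 32 genes (75.0%), against 20.2% of the 27025 genes with a window, 17.8% of those on the array and 14.8% of the 4004 above background on all 9 arrays. A CCAAT box also stood in 24 of the 32 (75.0%, against 41.1%, 42.2% and 44.9%), and both motifs shared a window in 21 (65.6%, against 7.97%, 7.26% and 6.92%). At least 2 CCAAT boxes were found in 15 of the 32 (46.9%, against 13.3%, 14.4% and 19.2%). A match is a stretch of letters and does not show that a factor binds there.

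The windows of 7 genes are printed because the results below turn on them, 5' to 3' on the strand of the gene, with motif letters in capitals. Cdc20 (chr4:118437294-118437593, minus strand), Plk1 (chr7:122159185-122159484, plus), Cenpa (chr5:30666636-30666935, plus) and Racgap1 (chr15:99651607-99651906, minus) were called in both comparisons with subcutaneous samples. Aurka (chr2:172370521-172370820, minus) was the gene called lower in the lung than in the dish. Kif2c (chr4:117178723-117179022, minus) and Nusap1 (chr2:119618048-119618347, plus) were lower in lung samples than under the skin.
Cdc20: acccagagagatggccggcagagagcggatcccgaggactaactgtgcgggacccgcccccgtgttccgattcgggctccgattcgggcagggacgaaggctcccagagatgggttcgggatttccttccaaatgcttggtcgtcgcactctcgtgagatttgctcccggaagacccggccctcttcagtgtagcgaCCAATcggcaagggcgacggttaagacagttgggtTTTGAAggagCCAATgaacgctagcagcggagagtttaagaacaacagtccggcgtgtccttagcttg
Plk1: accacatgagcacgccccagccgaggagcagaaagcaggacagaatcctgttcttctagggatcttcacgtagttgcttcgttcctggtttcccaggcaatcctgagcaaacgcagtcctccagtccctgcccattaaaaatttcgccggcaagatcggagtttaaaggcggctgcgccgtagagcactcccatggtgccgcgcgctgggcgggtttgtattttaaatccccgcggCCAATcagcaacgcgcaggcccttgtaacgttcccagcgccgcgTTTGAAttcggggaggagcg
Cenpa: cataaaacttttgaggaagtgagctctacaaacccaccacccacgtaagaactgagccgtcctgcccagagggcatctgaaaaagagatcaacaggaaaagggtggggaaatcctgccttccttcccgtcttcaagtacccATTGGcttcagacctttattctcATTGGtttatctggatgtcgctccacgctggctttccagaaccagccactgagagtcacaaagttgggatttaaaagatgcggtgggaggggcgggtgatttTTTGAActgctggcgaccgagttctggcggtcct
Racgap1: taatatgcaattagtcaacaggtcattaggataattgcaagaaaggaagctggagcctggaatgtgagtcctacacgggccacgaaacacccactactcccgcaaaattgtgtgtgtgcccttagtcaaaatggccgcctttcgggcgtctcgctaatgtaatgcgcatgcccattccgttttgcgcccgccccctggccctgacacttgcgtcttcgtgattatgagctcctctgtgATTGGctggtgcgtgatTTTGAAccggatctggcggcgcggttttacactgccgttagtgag
Aurka: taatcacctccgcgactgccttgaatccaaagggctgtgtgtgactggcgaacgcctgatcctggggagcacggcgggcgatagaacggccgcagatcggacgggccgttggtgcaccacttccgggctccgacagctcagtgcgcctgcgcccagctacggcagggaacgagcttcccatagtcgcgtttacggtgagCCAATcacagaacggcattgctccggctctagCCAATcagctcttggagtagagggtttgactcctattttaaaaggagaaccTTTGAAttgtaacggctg
Kif2c: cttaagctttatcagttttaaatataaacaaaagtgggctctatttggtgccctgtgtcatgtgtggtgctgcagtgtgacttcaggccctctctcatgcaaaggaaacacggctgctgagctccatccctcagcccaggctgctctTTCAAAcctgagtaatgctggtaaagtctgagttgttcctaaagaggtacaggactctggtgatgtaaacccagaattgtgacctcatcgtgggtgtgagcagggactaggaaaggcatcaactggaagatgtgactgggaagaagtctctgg
Nusap1: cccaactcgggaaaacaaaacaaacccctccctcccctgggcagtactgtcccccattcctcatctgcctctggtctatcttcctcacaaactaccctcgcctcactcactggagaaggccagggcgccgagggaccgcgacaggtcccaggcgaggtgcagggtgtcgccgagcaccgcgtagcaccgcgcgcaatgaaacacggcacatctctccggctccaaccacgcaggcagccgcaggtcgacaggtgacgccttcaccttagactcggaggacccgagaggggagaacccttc

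The Cdc20, Plk1, Cenpa and Racgap1 windows each hold 1 CHR, and its first base lies 18 bases before the start site in Cdc20 and 30, 16 and 5 bases after it in Plk1, Cenpa and Racgap1. The Aurka window holds 1 CHR and 2 CCAAT boxes, whereas that of Cenpe, the other gene called between lung and dish, holds no CHR and 1 CCAAT box. Kif2c has 1 CHR, on the other strand 103 bases before the start, and no CCAAT box, and Nusap1 has neither motif in this window. Over all 35 windows there were 34 CHR matches, 25 of them on the strand of the gene, and 1 overlapped a CCAAT box. A site in overlapping windows of 1 gene (Bub3, Ect2 and Prc1) is counted in each window. The median position of the CHR matches, counted so, was -10 bases, and 20 genes had one between -60 and 30, a stretch set after the positions had been seen. No match to TTTGAA was found in the windows of Birc5, Bub1, Cdc25b, Cenpe, Mad2l1, Nuf2, Nusap1 and Pttg1. Of these 8, Birc5, Cenpe and Nuf2 were called higher in lung samples than under the skin, as were 9.21% of all genes. The calls of Birc5 and Nuf2 did not hold in every fit that left out 1 array. Genes with and without a match were among those called, and the part of the motif in the calls was not tested.

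**Figure D2:**
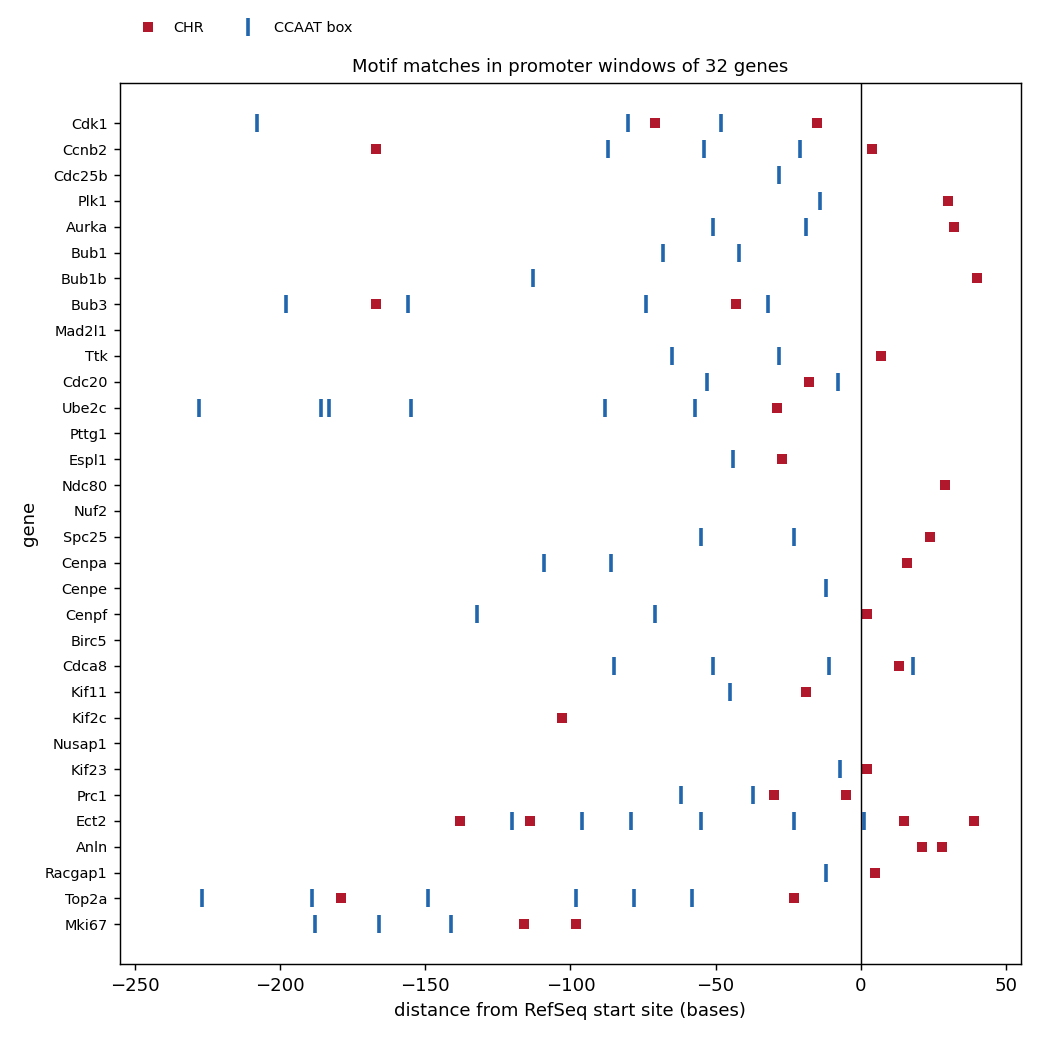
Position of each match to the CHR (red squares) and the CCAAT box (blue bars) in the promoter windows of 32 genes, in bases from the RefSeq start site, taking both strands and, for 3 genes with several overlapping windows, each window's own start. CHR matches crowd around the start (median -10), and CCAAT boxes mostly lie before it.

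Among the genes of mitotic entry, Cdk1, the mitotic kinase itself, had signals of 15.44, 15.46 and 15.34 in the dish, 14.42, 13.89 and 13.72 under the skin and 14.80, 14.69 and 14.74 in the lung. The 3 groups did not overlap, with dish highest and subcutaneous lowest. The difference between subcutaneous and dish samples was -1.40 (SE 0.24, adjusted p = 0.00173) and was called, whereas 0.73 (SE 0.24, adjusted p = 0.0576) between lung and subcutaneous and -0.67 (SE 0.24, adjusted p = 0.117) between lung and dish were not. Ccna2, the cyclin that partners Cdk1 and Cdk2 into early mitosis, stood at 12.59, 12.41 and 12.46 in the dish, 11.80, 11.44 and 11.08 under the skin and 12.61, 12.42 and 12.58 in the lung. Every subcutaneous value lay under every value of the other groups, and lung and dish overlapped. Ccna2 fell by 1.05 from dish to subcutaneous (adjusted p = 0.0117) and was higher in lung samples than under the skin by 1.10 (SE 0.24, adjusted p = 0.00886).

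Plk1, the polo-like kinase that activates Cdc25 and acts at kinetochores and the midzone, read 14.11, 13.79 and 14.26 in the dish, 13.04, 11.77 and 12.28 under the skin and 13.92, 14.19 and 13.58 in the lung. Lung and dish values overlapped, and all 3 subcutaneous values lay below both. Its differences were 1.53 (SE 0.32, adjusted p = 0.00633) between lung and subcutaneous and -1.69 (SE 0.32, adjusted p = 0.00322) between subcutaneous and dish, both called. Aurka, the kinase of the spindle poles, gave 12.75, 12.58 and 12.70 in the dish, 10.93, 9.95 and 10.13 under the skin and 11.41, 11.12 and 11.07 in the lung. Here the groups formed 3 steps that did not overlap, with lung between the others. Aurka fell by 2.34 from dish to subcutaneous (SE 0.27, adjusted p = 0.000131), and it was the 1 gene of the 39 called lower in the lung than in the dish (-1.48, SE 0.27, adjusted p = 0.00699). The difference of 0.86 (SE 0.27, adjusted p = 0.0511) between lung and subcutaneous was not called with all arrays and was called without subcutaneous replicate 1 (1.16, adjusted p = 0.0111).

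Of the Cdc25 phosphatases, Cdc25c had signals of 7.28, 7.28 and 7.26 in the dish, 6.76, 6.76 and 5.71 under the skin and 8.09, 7.55 and 7.76 in the lung. All 3 lung values lay above background and above both other groups, while the subcutaneous values were background. The difference between lung and subcutaneous samples was 1.39 (SE 0.30, adjusted p = 0.00772), or at least 0.29 against the background guide. Cdc25b, at 7.23 to 8.69 over all arrays, and the cyclin gene Ccnb2, at 13.24 to 13.92, overlapped between all groups and were called in no comparison. In all, 3 of the 7 measured entry genes were called higher in lung samples than under the skin and 4 lower under the skin than in the dish. The calls of Ccna2, Cdc25c and Plk1 between lung and subcutaneous samples, and of Cdk1, Ccna2, Plk1 and Aurka between subcutaneous and dish samples, held when any 1 of the 9 arrays was left out. Without subcutaneous replicate 1, Cdk1 was called higher in lung samples than under the skin (0.94, adjusted p = 0.0241).

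The spindle checkpoint genes differed in their calls. Bub1, a kinase that recruits other checkpoint proteins to kinetochores, had signals of 10.76, 10.25 and 9.51 in the dish, 9.50, 8.84 and 8.48 under the skin and 9.90, 9.89 and 10.15 in the lung. Subcutaneous values lay below both other groups. Bub1 fell by 1.23 from dish to subcutaneous (adjusted p = 0.0286), and the lung minus subcutaneous difference of 1.03 (SE 0.34, adjusted p = 0.0558) was not called. Bub3, the partner that binds Bub1 and Bub1b, was lower under the skin than in the dish (-0.89, SE 0.22, adjusted p = 0.0165) and higher in lung samples than under the skin (0.75, SE 0.22, adjusted p = 0.0378). Ttk, the kinase Mps1 that starts the checkpoint signal, read 5.63, 6.23 and 5.39 in the dish, 4.79, 5.55 and 4.33 under the skin and 6.28, 6.01 and 5.73 in the lung. All 9 values were under background, so its call between lung and subcutaneous samples (1.12, SE 0.33, adjusted p = 0.0377) compares signals at background and no fold is read from it. Bub1b and Mad2l1, which together with Bub3 and Cdc20 form the inhibitor of the APC/C, overlapped between all groups, with lung minus subcutaneous differences of 0.01 (SE 0.48) and -0.30 (SE 0.28).

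Several of these checkpoint calls depended on single arrays. Bub1 between subcutaneous and dish samples was lost without dish replicate 1 or 2 or subcutaneous replicate 2 or 3 (adjusted p = 0.0829 to 0.116), and Bub3 there without dish replicate 3 or subcutaneous replicate 3 (0.0538 and 0.0548). Bub3 between lung and subcutaneous samples was lost without dish replicate 2, without any lung array and without subcutaneous replicate 2 or 3 (0.0534 to 0.109), and Ttk without dish replicate 1, subcutaneous replicate 1 or 3 or lung replicate 1 or 2 (0.0504 to 0.142). Bub1 was called between lung and subcutaneous samples without dish replicate 1 or 3 or subcutaneous replicate 1 (0.0278 to 0.0441). Ttk was called lower under the skin than in the dish without subcutaneous replicate 2 (0.0337).

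Cdc20, the activator of the APC/C and the target of the checkpoint, had the smallest adjusted p of the 39 genes between lung and subcutaneous samples. Its promoter window holds 1 CHR and 2 CCAAT boxes. Its signals were 12.97, 12.69 and 12.61 in the dish, 11.19, 10.97 and 10.12 under the skin and 13.78, 13.67 and 13.33 in the lung. The groups did not overlap, and the lung values were the highest. The lung samples exceeded the subcutaneous ones by 2.83 (SE 0.29, adjusted p = 0.000144), the subcutaneous minus dish difference was -1.995 (SE 0.29, adjusted p = 0.000617), and the lung minus dish difference of 0.84 (SE 0.29, adjusted p = 0.108) was not called. Both calls held without any 1 array.

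Espl1, the separase that cuts cohesin at anaphase, read 9.70, 9.83 and 10.42 in the dish, 9.42, 8.44 and 7.70 under the skin and 10.43, 10.34 and 9.73 in the lung. Subcutaneous values lay under both other groups, and replicate 3 there was at background. Its mRNA is long too, so lung replicate 3 is given apart. Lung replicates 1 and 2 exceeded the subcutaneous mean by 1.86 and lung replicate 3 exceeded it by 1.22. Against the dish mean the figures were 0.40 and -0.25. Espl1 was higher in lung samples than under the skin by 1.65 (SE 0.38, adjusted p = 0.0123) and lower under the skin than in the dish, with a difference of -1.47 (SE 0.38, adjusted p = 0.023). The first call was lost without lung replicate 1 (adjusted p = 0.0579), the second without dish replicate 2 or 3 or subcutaneous replicate 2 or 3 (0.0568 to 0.100). Ube2c, the ubiquitin-conjugating enzyme of the APC/C, was lower under the skin than in the dish (-0.79, SE 0.24, adjusted p = 0.0443), a call that was lost without any array but dish replicate 1 and lung replicate 3 (0.0609 to 0.157). Pttg1, the securin that holds separase inactive, ranged from 10.72 to 11.51 over all arrays and was called in no comparison.

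**Figure D3:**
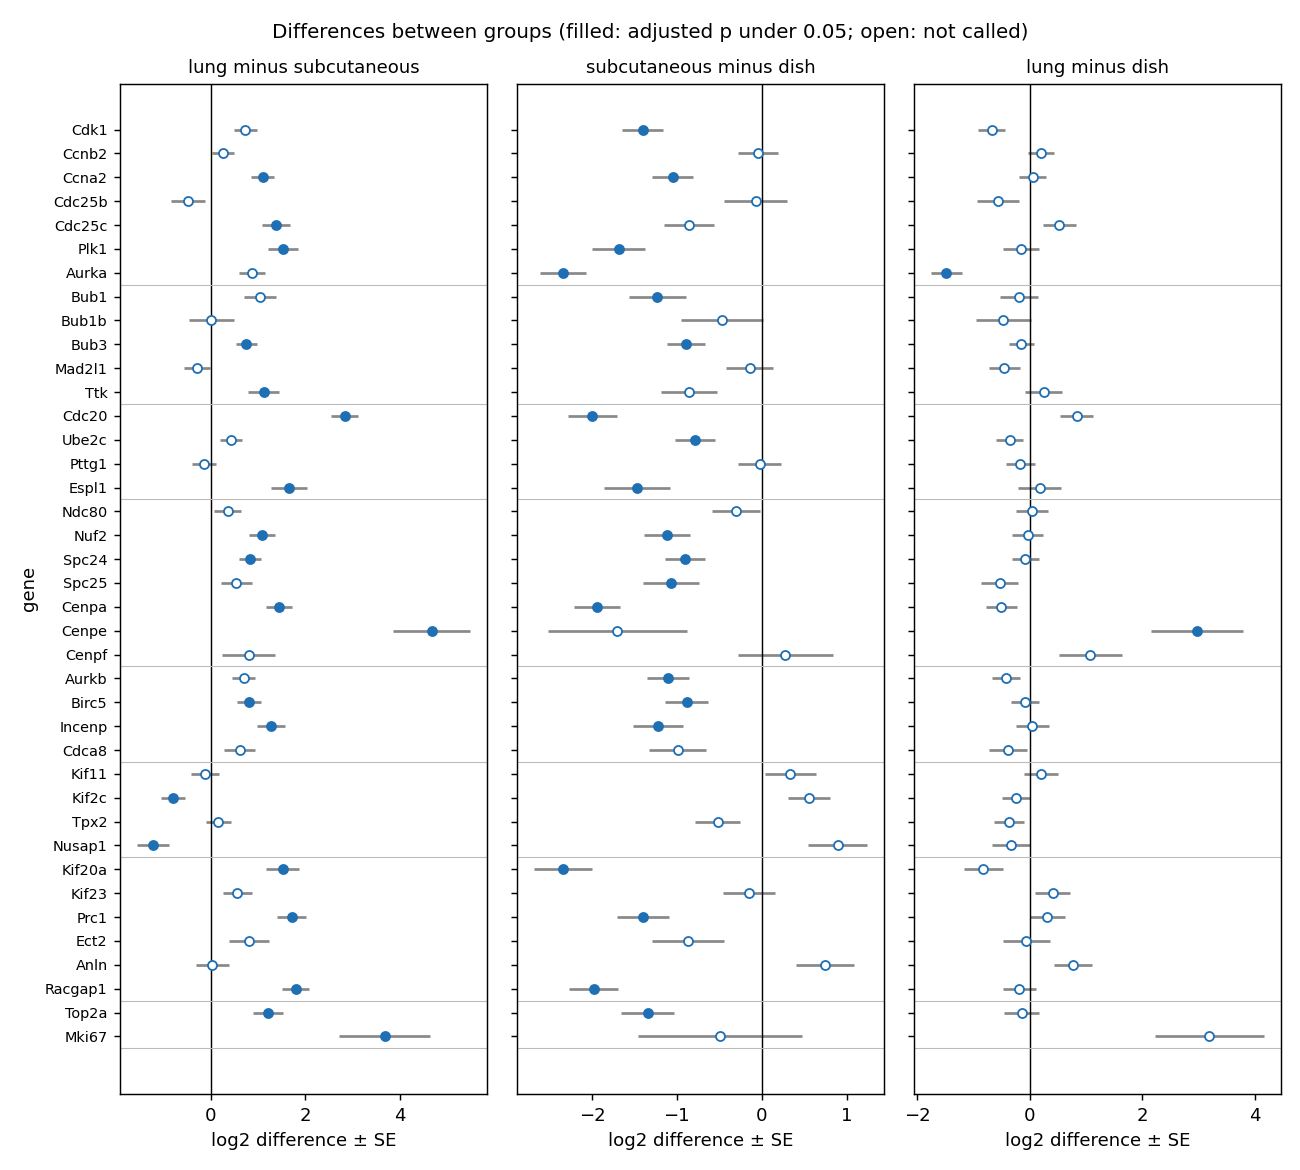
Log2 difference of each of the 39 genes with its standard error, for lung minus subcutaneous (left), subcutaneous minus dish (middle) and lung minus dish (right); filled points have an adjusted p under 0.05. Filled points lie right of 0 in the left panel except Kif2c and Nusap1, left of 0 in the middle panel, and are Cenpe and Aurka in the right panel.

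Of 7 kinetochore and centromere genes, 4 were called higher in lung samples than under the skin and 4 lower under the skin than in the dish. Cenpa, the histone variant that marks centromeres and whose CHR lies just after the start site, had signals of 16.00, 15.70 and 15.59 in the dish, 14.19, 13.42 and 13.87 under the skin and 15.34, 15.56 and 14.89 in the lung. No groups overlapped, with dish highest and subcutaneous lowest. Its differences were 1.44 (SE 0.27, adjusted p = 0.004) between lung and subcutaneous and -1.94 (SE 0.27, adjusted p = 0.000483) between subcutaneous and dish, and both were called without any 1 array as well. The 4 subunits of the Ndc80 complex, which binds microtubule ends, differed in their calls. Nuf2 read 10.84, 10.75 and 10.58 in the dish, 9.88, 9.17 and 9.78 under the skin and 10.90, 10.24 and 10.92 in the lung. Subcutaneous values lay under both other groups, which overlapped. Nuf2 was called in both comparisons (1.08, SE 0.27, adjusted p = 0.0186 and -1.11, SE 0.27, adjusted p = 0.0166).

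Spc24 was called in both comparisons too, at 0.83 (SE 0.24, adjusted p = 0.0344) between lung and subcutaneous and -0.90 (SE 0.24, adjusted p = 0.0244) between subcutaneous and dish. Spc25 gave signals of 10.56, 10.09 and 10.12 in the dish, 9.58, 9.66 and 8.34 under the skin and 9.70, 9.88 and 9.59 in the lung. Lung and subcutaneous values overlapped, and both lay under the dish values. Its subcutaneous minus dish difference was called (-1.06, SE 0.33, adjusted p = 0.0499) and its lung minus subcutaneous difference was not (0.53, SE 0.33, adjusted p = 0.309). Ndc80 itself, at 8.51 to 9.72 on all arrays, was called in no comparison. These calls of Nuf2, Spc24 and Spc25 rested on several arrays. Between lung and subcutaneous samples Nuf2 was lost without subcutaneous replicate 2 or lung replicate 1 or 3 (adjusted p = 0.0529 to 0.0866), and Spc24 without subcutaneous replicate 1 or 3 or lung replicate 1 or 2 (0.0532 to 0.137). Between subcutaneous and dish samples Nuf2 was lost without dish replicate 1 or 2 or subcutaneous replicate 2 (0.0565 to 0.0704), Spc24 without any dish array or subcutaneous replicate 3 (0.0569 to 0.0821), and Spc25 without any array but subcutaneous replicates 1 and 2 (0.0549 to 0.155).

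Cenpe, Cenpf and Mki67 are transcribed into very long mRNAs, and lung replicate 3 is given apart for them. Cenpe, the kinetochore motor that moves chromosomes to the metaphase plate, had signals of 7.57, 7.32 and 7.52 in the dish, 5.15, 5.67 and 6.50 under the skin and 11.77, 11.85 and 7.72 in the lung. Lung replicates 1 and 2 stood far above all other arrays, and lung replicate 3 lay just above the dish values. Lung replicates 1 and 2 exceeded the subcutaneous mean by 6.04 and lung replicate 3 exceeded it by 1.94, and against the dish mean the figures were 4.34 and 0.25. With all lung arrays the difference was 4.67 (SE 0.81, adjusted p = 0.00242) against subcutaneous, or at least 2.94 over the background guide, and 2.97 (SE 0.81, adjusted p = 0.0447) against dish. The first call held without any 1 array. The second held without lung replicate 3 and was lost without any other array (adjusted p = 0.0503 to 0.177). Cenpe was called lower under the skin than in the dish without lung replicate 3 (-1.70, adjusted p = 0.00321) and not with it (adjusted p = 0.211), the difference itself being the same. The subcutaneous signals were under background on all 3 arrays and the dish signals on 2 of 3, so that call compares signals at background and no fold is read from it.

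Mki67, which encodes the Ki-67 protein that coats mitotic chromosomes and is the standard proliferation stain, read 9.74, 9.76 and 9.61 in the dish, 8.99, 9.31 and 9.33 under the skin and 14.34, 14.84 and 9.49 in the lung. Lung replicate 3 lay just under the dish values, whereas lung replicates 1 and 2 lay above every other array. The excess over the subcutaneous mean was 5.38 on lung replicates 1 and 2 and 0.28 on lung replicate 3, and over the dish mean it was 4.89 and -0.21. The difference of 3.68 (SE 0.97, adjusted p = 0.0221) between lung and subcutaneous samples was called, a call lost without any subcutaneous array or without lung replicate 1 or 2 (adjusted p = 0.0551 to 0.102). Against dish the difference was 3.19 (SE 0.97, adjusted p = 0.0684), not called, and without lung replicate 3 it was 4.89 (adjusted p = 4.24e-06). Cenpf, a large protein of the outer kinetochore, gave 4.15, 4.17 and 4.17 in the dish, 4.60, 4.47 and 4.25 under the skin and 5.91, 6.40 and 3.40 in the lung, all under background. Its lung replicates 1 and 2 were 1.72 above the subcutaneous mean and lung replicate 3 was -1.04 from it. Without lung replicate 3 Cenpf was called against subcutaneous (adjusted p = 0.00123) and against dish (0.000938), though its signals were at background.

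**Figure D4:**
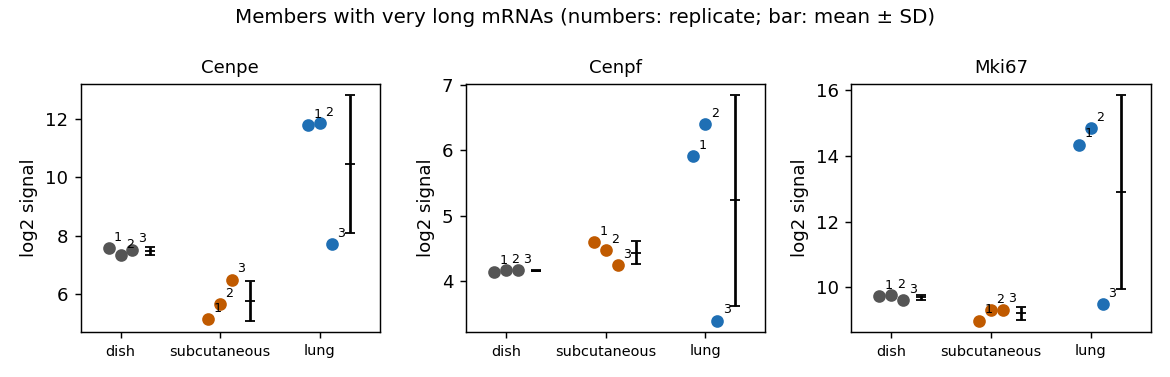
Log2 signals of Cenpe, Cenpf and Mki67 on each array, with replicate numbers beside the points and the mean ± SD of each group (n = 3) to their right. On lung replicates 1 and 2 the Cenpe signals are 11.77 and 11.85 and those of Mki67 14.34 and 14.84, while lung replicate 3 lies at 7.72 and 9.49.

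Lung replicate 3 was also lower than lung replicates 1 and 2 in other long mRNAs. In a list of 68 measured genes known for very long mRNAs, none of them a mitosis gene, lung replicates 1 and 2 exceeded lung replicate 3 by a median of 0.98, with 61 of 68 genes in that direction. The median over all genes was 0.01. Over the 39 mitosis genes it was 0.39, with 31 positive, and 0.38 over the 36 genes without Cenpe, Cenpf and Mki67. The mean level of 43 long mRNAs above background, centred over the 9 arrays, was 0.85, 1.02 and 0.01 on the lung arrays, against group means of -0.54 in the dish and -0.08 under the skin. By that level lung replicate 3 lay above every dish array (-0.66 to -0.32) and within the subcutaneous range (-0.25 to 0.19). With that level as a covariate, an alternative chosen after seeing the data, 3 mitosis genes (Cdc20, Nuf2 and Racgap1) were called higher and Nusap1 lower between lung and subcutaneous samples, and 17 lower between subcutaneous and dish samples. At that setting the median of the mitosis genes was 0.71 between lung and subcutaneous samples and -1.04 between subcutaneous and dish samples.

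The chromosomal passenger complex carries the kinase Aurkb to centromeres and then to the midzone. Aurkb had signals of 12.96, 12.78 and 12.80 in the dish, 12.16, 11.68 and 11.36 under the skin and 12.37, 12.48 and 12.44 in the lung. The groups did not overlap, with dish highest and subcutaneous lowest. Aurkb fell by 1.11 from dish to subcutaneous (SE 0.25, adjusted p = 0.00948), and 0.70 (SE 0.25, adjusted p = 0.0774) between lung and subcutaneous was not called with all arrays and was called without subcutaneous replicate 1 (0.91, adjusted p = 0.0308). Incenp, the scaffold that activates Aurkb, read 8.19, 8.14 and 8.19 in the dish, 6.89, 7.45 and 6.53 under the skin and 8.34, 8.62 and 7.72 in the lung. Subcutaneous values lay under both other groups, with replicates 1 and 3 at background. It was called in both comparisons (1.27, SE 0.29, adjusted p = 0.0118 and -1.22, SE 0.29, adjusted p = 0.0146), the first lost without lung replicate 1 or 2 (0.0532 and 0.0546) and the second without subcutaneous replicate 3 (0.0581).

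Birc5, the survivin subunit, was higher in lung samples than under the skin by 0.80 (SE 0.25, adjusted p = 0.0481) and lower under the skin than in the dish, with a difference of -0.88 (SE 0.25, adjusted p = 0.0349). The first call was lost without any array but subcutaneous replicate 1 and lung replicate 2 (adjusted p = 0.0585 to 0.168). The second was lost without any dish array, subcutaneous replicate 2 or 3 or lung replicate 1 (0.0509 to 0.105). Cdca8, the borealin subunit, overlapped between all groups and was called lower under the skin than in the dish without subcutaneous replicate 1 (-1.30, adjusted p = 0.0245) but not with all arrays (-0.99, SE 0.33, adjusted p = 0.0715). In this complex, then, 2 of 4 genes were called higher in lung samples than under the skin and 3 of 4 lower under the skin than in the dish.

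The spindle genes were the 1 role in which no gene was called lower under the skin than in the dish. Nusap1, which bundles spindle microtubules near chromosomes and whose window holds neither motif, had signals of 11.56, 11.03 and 10.42 in the dish, 12.16, 12.04 and 11.48 under the skin and 10.50, 11.27 and 10.25 in the lung. Every subcutaneous value lay above every lung value, and dish values overlapped both. Nusap1 was lower in lung samples than under the skin, with a difference of -1.22 (SE 0.34, adjusted p = 0.0308). Kif2c, a kinesin that depolymerizes microtubules at centromeres, was at 11.999 to 12.47 under the skin, 11.18 to 11.58 in the lung and 11.34 to 11.92 in the dish. Its lung minus subcutaneous difference was -0.80 (SE 0.25, adjusted p = 0.0474). Kif11, the motor that separates the spindle poles, and Tpx2, the activator of Aurka, were called in no comparison (lung minus subcutaneous -0.13 and 0.16). The Nusap1 call was lost without subcutaneous replicate 1 or 2 or lung replicate 1 or 3 (adjusted p = 0.0852 to 0.111), and the Kif2c call without any array but dish replicate 1 (0.0533 to 0.131).

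Cytokinesis genes, which build the midzone and the cleavage furrow, split into called and uncalled members. Racgap1, which with Kif23 forms centralspindlin, had signals of 12.11, 11.64 and 11.69 in the dish, 10.22, 9.88 and 9.40 under the skin and 11.42, 12.08 and 11.40 in the lung. Subcutaneous values lay more than 1 log2 unit below every value of the other groups, which overlapped. Racgap1 was higher in lung samples than under the skin by 1.80 (SE 0.29, adjusted p = 0.00145) and lower under the skin than in the dish, with a difference of -1.98 (SE 0.29, adjusted p = 0.000583). Kif23, its partner in that complex, was at 9.70 to 10.92 under the skin, 10.30 to 10.59 in the dish and 10.59 to 11.16 in the lung, and was called in no comparison. The lung minus subcutaneous difference of Kif23 was 0.56 (SE 0.30, adjusted p = 0.247).

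Prc1, which crosslinks midzone microtubules, read 9.69, 9.30 and 9.48 in the dish, 8.66, 8.04 and 7.57 under the skin and 9.96, 10.11 and 9.34 in the lung. All subcutaneous values were lower than all others, and subcutaneous replicate 3 was at background. Its differences were 1.71 (SE 0.31, adjusted p = 0.00287) and -1.40 (SE 0.31, adjusted p = 0.0087), both called. Kif20a, a midzone kinesin, gave 11.44, 10.92 and 10.72 in the dish, 9.44, 8.25 and 8.38 under the skin and 10.55, 10.32 and 9.75 in the lung. The 3 groups did not overlap, with lung between dish and subcutaneous. Kif20a fell by 2.34 from dish to subcutaneous (adjusted p = 0.000632) and was higher in lung samples than under the skin by 1.52 (SE 0.34, adjusted p = 0.0104), the second call being lost without lung replicate 1 (0.0555). The other calls of Racgap1, Prc1 and Kif20a held without any 1 array. Ect2, the exchange factor that switches on RhoA at the furrow, and Anln, the furrow scaffold, overlapped between groups. Ect2 was called without subcutaneous replicate 1 against lung (1.35, adjusted p = 0.0263) and against dish (-1.41, 0.0227). Subcutaneous replicates 2 and 3, at 5.94 and 6.50, were under background for Ect2, as were lung replicate 3 and dish replicate 3. No fold is therefore read from those calls. Anln was called higher under the skin than in the dish without dish replicate 1 (1.12, 0.0431).

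Top2a, the topoisomerase that untangles sister chromatids, had signals of 13.26, 12.93 and 13.03 in the dish, 12.19, 11.98 and 11.02 under the skin and 13.06, 13.23 and 12.51 in the lung. Subcutaneous values lay under both other groups, which overlapped. It was called in both comparisons (1.20, SE 0.32, adjusted p = 0.0225 and -1.35, SE 0.32, adjusted p = 0.013). The first call was lost without subcutaneous replicate 3 or lung replicate 1 or 2 (adjusted p = 0.0788 to 0.0879), and the second without dish replicate 1 (0.0504).

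**Figure D5:**
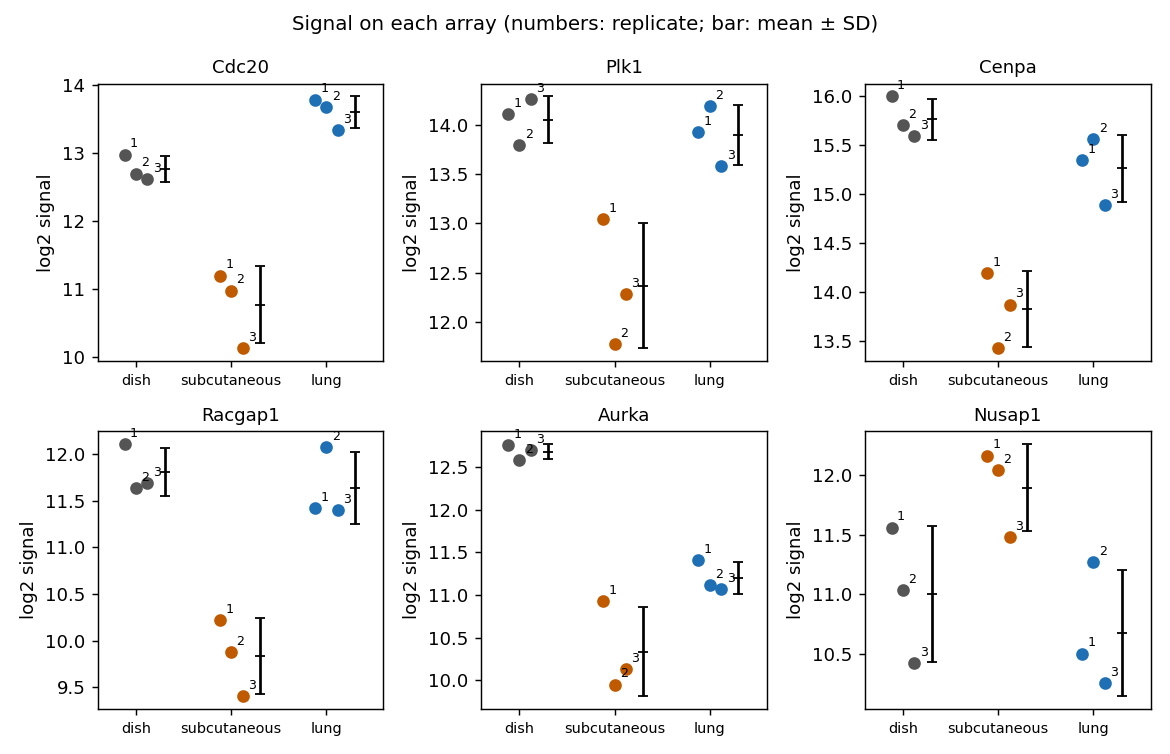
Log2 signals of Cdc20, Plk1, Cenpa, Racgap1, Aurka and Nusap1 on each array, with replicate numbers beside the points and the mean ± SD of each group (n = 3) to their right. Subcutaneous points lie lowest for all of these genes except Nusap1, where they lie above the lung points, and Aurka steps down from dish to lung to subcutaneous.

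Of the 20 mitosis genes called between lung and subcutaneous samples, 8 were called in every fit that left out 1 array: Ccna2, Cdc25c, Plk1, Cdc20, Cenpa, Cenpe, Prc1 and Racgap1. The count called higher ranged from 8, without lung replicate 1, to 20, and that called lower from 0 to 2. Of the 20 called between subcutaneous and dish samples, 10 were called in every such fit: Cdk1, Ccna2, Plk1, Aurka, Cdc20, Cenpa, Aurkb, Kif20a, Prc1 and Racgap1. That count ranged from 12, without subcutaneous replicate 3, and 13, without dish replicate 2, to 21. With the RNA integrity number as a covariate it was 7, against 16 called higher between lung and subcutaneous samples.

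Replicates of a group differed in a common direction over these genes. Subcutaneous replicate 1 was the highest of its group for 28 of the 39 genes and subcutaneous replicate 3 the lowest for 23. Over genes above background on all arrays, these arrays were highest for 38.9% and lowest for 42.9%. Lung replicate 3 was the lowest of its group for 29 of the 39 (43.6% of the genes above background), and dish replicate 1 the highest for 26 (58.9%). Dish replicate 1 was thus the highest for most genes above background as well, so its order was not particular to mitosis genes. The median signal of the 39 genes was 11.15, 10.92 and 10.72 in the dish, 10.22, 9.95 and 9.77 under the skin and 10.90, 11.16 and 10.71 in the lung. No subcutaneous median reached a median of the other groups.

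Other genes of cell division were read from 8 lists. Of 126 listed genes 121 were measured. Between lung and subcutaneous samples 46 of the 121 were called higher and 6 lower, with a median of 0.68. Over all genes 9.21% were called higher and 5.79% lower there. Between subcutaneous and dish samples 5 were called higher and 30 lower, with a median of -0.48, and between lung and dish 10 were higher and 6 lower, with a median of 0.17. Over all genes 6.41% were called higher and 6.47% lower between subcutaneous and dish samples. Between lung and dish these shares were 4.81% and 1.97%. By list, the calls higher in lung samples than under the skin numbered 12 of 28 other centromere and kinetochore genes, 10 of 19 other kinesin and spindle genes, 7 of 17 condensin and cohesin genes, 5 of 15 APC/C genes, 4 of 8 checkpoint and cohesion guardians, 4 of 11 entry regulators and 1 of 11 centrosome genes. Taken in the same order, the lists held 8, 4, 4, 6, 2, 3 and 1 genes called lower under the skin than in the dish. The centrosome counts were near the shares of all genes.

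The largest rises between lung and subcutaneous samples in these lists were those of Numa1 (2.36, SE 0.49, adjusted p = 0.00665, or at least 1.27), which focuses spindle poles, and Fzr1 (2.25, SE 0.35, adjusted p = 0.00126), the APC/C activator Cdh1 of late mitosis and G1. Fzr1 fell by 2.25 from dish to subcutaneous (adjusted p = 0.000913). Lower in the lung were Ensa (-1.73, SE 0.36, adjusted p = 0.00604, or at least 0.65), an inhibitor of the phosphatase PP2A in mitosis, and the APC/C subunit Cdc26 (-1.31, SE 0.22, adjusted p = 0.00226). These calls held without any 1 array. Numa1 stood at 9.26 and 9.69 on lung replicates 1 and 2 and at 7.38 on lung replicate 3. With the long-mRNA level as a covariate its difference was 0.90 (adjusted p = 0.219), and the calls of Ensa (0.0689) and Cdc26 (0.0615) were lost as well. The 5 genes called higher under the skin than in the dish were Cenpc1 (1.67), which binds Cenpa nucleosomes, Rbl2 (1.57), Cdc26 (1.12), the APC/C subunit Cdc16 (0.96) and the centromere gene Cenpu (0.86). Cdc16 was lost without any dish array or subcutaneous replicate 2 (adjusted p = 0.0534 to 0.120), and Cenpu without any dish array or subcutaneous replicate 1 or 3 (0.0591 to 0.0727).

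Between lung and dish the largest rises were those of the cohesin loader Nipbl (2.23, SE 0.56, adjusted p = 0.0299) and the cohesin subunit Smc3 (2.00, SE 0.39, adjusted p = 0.00937), and the largest falls those of the APC/C subunit Anapc5 (-1.67, SE 0.24, adjusted p = 0.00166) and the kinetochore gene Nsl1 (-1.14, SE 0.27, adjusted p = 0.0241). Lung replicates 1 and 2 exceeded lung replicate 3 by 2.61 for Nipbl and by 1.61 for Smc3. With the long-mRNA covariate the differences of Nipbl and Smc3 were -0.56 (adjusted p = 0.832) and 0.13 (0.972), and Nsl1 was not called (0.307). Nipbl was lost without any dish array or lung replicate 1 or 2 (adjusted p = 0.0633 to 0.134), Smc3 without dish replicate 2 (0.0545) and Nsl1 without dish replicate 2 or 3 or lung replicate 1 or 3 (0.0655 to 0.0966).

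The genes that transcribe the mitotic program gave 3 calls higher and 2 lower of 12 between lung and subcutaneous samples, and 1 higher and 2 lower between subcutaneous and dish samples. The shares of all genes were 9.21% higher and 5.79% lower in the first comparison and 6.41% and 6.47% in the second. The medians of the 12 genes were -0.05 in the first and -0.09 in the second, so the list as a whole did not move. Lin9 of this list was called in no comparison (0.19 in the first and -0.28 in the second), and Foxm1 was not analysed. As background, the MuvB complex binds the CHR, with Mybl2 when mitotic genes are on and with E2f4 and the p107 or p130 pocket protein when they are held off; p130 is the product of Rbl2. Mybl2 had signals of 15.47, 15.24 and 15.33 in the dish, 13.61, 12.64 and 12.89 under the skin and 15.61, 15.68 and 14.35 in the lung. Subcutaneous values lay under both other groups, which overlapped. Mybl2 fell by 2.30 from dish to subcutaneous (SE 0.36, adjusted p = 0.000897) and was higher in lung samples than under the skin by 2.16 (SE 0.36, adjusted p = 0.00177). Rbl2 ran the other way, at 9.76, 9.43 and 9.84 in the dish, 11.07, 11.36 and 11.32 under the skin and 10.17, 10.28 and 9.62 in the lung. Every subcutaneous value lay above every other, and the differences were 1.57 (SE 0.25, adjusted p = 0.00111) between subcutaneous and dish and -1.23 (SE 0.25, adjusted p = 0.00596) between lung and subcutaneous. The calls of Mybl2 and Rbl2 held without any 1 array, and with the long-mRNA covariate that of Mybl2 between lung and subcutaneous samples was lost (1.57, adjusted p = 0.0641). E2f4, added here after its values were seen, did not follow Rbl2. Its signals were 12.74, 12.30 and 12.68 in the dish, 11.73, 12.23 and 12.58 under the skin and 14.07, 14.24 and 13.06 in the lung. Lung values lay above both other groups, which overlapped. E2f4 was higher in lung samples than under the skin by 1.61 (SE 0.33, adjusted p = 0.00598) and than in the dish by 1.22 (SE 0.33, adjusted p = 0.0438), and the subcutaneous minus dish difference of -0.40 (SE 0.33, adjusted p = 0.507) was not called. The call against subcutaneous samples held without any 1 array and was lost with the long-mRNA covariate (0.88, adjusted p = 0.207). The call against dish was lost without any dish array, subcutaneous replicate 2 or lung replicate 1 or 2 (0.0560 to 0.166), with centring (0.0763), with quantile normalization (0.0660) and with that covariate (0.01, adjusted p = 0.996).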

How the data were processed

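RNA of 9 samples, 3 per group by their titles, was labelled with biotin and read on a 1-colour array, per the labels' protocols. The authors deposited 1 table of log2 signals (1.56 to 19.71) with 28846 rows, and their normalization is not given in the sources used here. The values were used as deposited. Platform annotation gave 19572 of 22206 gene features 1 symbol, and RefSeq gene numbers changed 0 of them. The feature with the highest mean stood for a gene, which left 19505 genes. The number of arrays limits the precision. No arrays were identical (smallest of the largest differences between 2 arrays, 2.38).

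limma 3.58.1 in R 4.3.3 fitted 3 group means to all arrays (lmFit and eBayes, 6 residual and 7.08 prior degrees of freedom) and was checked on simulated data. Tests were two-sided, Benjamini-Hochberg adjusted over 19505 genes, and called under 0.05. "At least" sets the brighter group's mean against the 90th percentile of 5222 negative controls, averaged over the arrays of the dimmer group, where the latter was under it on all arrays. The bracketed errors are standard errors of the difference (n = 3 a group). The fit was repeated under 19 other settings.

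The genes and lists were chosen with earlier results of these data known, so nothing here is independent of them. Signals are given for each array for genes called with a difference of at least 1 and for Cenpe, Cenpf, Mki67 and Espl1, which have long mRNAs. Of the other lists, the 2 called genes with the largest difference in each direction are named, and all where 5 or fewer were called. The main fit did not pair samples by replicate number. Deviations from group means correlated at -0.06 to 0.09 for same-numbered samples and -0.14 to 0.10 for the others (Pearson's r across genes). Such values cannot show whether samples shared a batch or host. Promoter windows are RefSeq's, on GRCm38.p6, matched by gene number.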

Additional observations from a re-analysis of the deposited data

How the results depend on the processing

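Among differences called with either setting, Cenpe between lung and dish changed direction, to -0.91 (adjusted p = 0.835) with the long-mRNA level as a covariate, as did Nipbl (-0.56) and Numa1 (-0.46) of the other lists. The cause was not tested. That covariate, built from a hand-written list and chosen after seeing the data, also gave 3 mitosis genes called higher and 1 lower between lung and subcutaneous, 0 and 0 between lung and dish, and 1043 and 98 genes in all. The planned version from protein lengths was not run, since no protein table was at hand. Mitosis genes called lower between lung and subcutaneous were 1 with array weights, with only the 2 groups or with the RNA integrity number. Between lung and dish the count called higher was 0 with quantile normalization, only the 2 groups or the integrity number, 2 with the filter on dim genes or the intensity trend and 5 with array weights, and the count called lower was 2 with centring, trend or weights. Array weights called 3039 genes in all there and the integrity number 856. Between subcutaneous and dish the integrity number gave 7 mitosis genes lower and 1280 genes in all. With the replicate block, 18 mitosis genes were called higher and 2 lower between lung and subcutaneous, 2 and 1 between lung and dish and 0 and 20 between subcutaneous and dish. Leaving out 1 array gave, between lung and subcutaneous, 8 to 20 higher and 0 to 2 lower (1476 to 2928 genes in all), between lung and dish 0 to 3 and 1 (514 to 1442), and between subcutaneous and dish 0 to 1 and 12 to 21 (1639 to 2738). Taking the mean of features changed no call among the 39 mitosis genes. Signals under background set a limit for Ttk and Cenpf.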
